A study of Mus musculus with 6 samples.

Results

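The 39 genes described here belong to the transcriptional response to amino acid shortage and to protein stress in the endoplasmic reticulum (ER). They were chosen by gene symbol, with earlier results of these data known, as pathway members from the 19489 genes of a messenger RNA table. Of these, 27 genes form the Atf4 amino acid arm, with 5 regulators, 3 other targets, 8 enzymes of amino acid and one-carbon synthesis, 5 transporters and 6 tRNA synthetases. The other 12 genes form the ER chaperone arm. Expression was measured in 6 libraries of mouse embryonic stem cells (ESCs), 3 labelled Con with a wild type genotype and 3 overexpressing *Dppa3* (OE), a maternal factor of the early embryo. Per the study's methods, OE cells carried *Dppa3* behind a CAG promoter and Con cells the vector without it, both under puromycin. The methods describe stable lines from picked colonies and a transient form, and do not say which of them was sequenced. The methods describe ESC culture with serum and LIF and do not mention the D7 libraries. The libraries come as Con-1 and OE-1 (pair 1), Con-2 and OE-2 (pair 2), and Con-D7 and OE-D7 (the D7 pair). D7 is not explained in the sources used here. The libraries of pairs 1 and 2 are called D0 below, after the heading of a supplementary table. The ESC line of these libraries was not given in the sources used here, and the strain label changes from library to library. Whether the 6 libraries stand for independent cultures is not stated, and every p-value below therefore refers to library-to-library spread that may be technical. Levels are in fragments per transcript length and sequencing depth (FPKM), and all differences are on the log2 scale of normalized counts unless a level in FPKM is named.

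When amino acids run short or unfolded proteins collect in the ER, kinases phosphorylate the initiation factor eIF2, general translation slows, and the mRNA of the transcription factor *Atf4* is translated more. Atf4 protein then raises genes that make, import and charge amino acids, while the ER sensors Atf6 and Ire1, the latter through spliced *Xbp1*, raise the chaperones that fold secreted proteins. *Atf4* is controlled largely in translation and *Xbp1* by splicing, so neither step is read directly by an mRNA level. In ESCs, which divide fast, enzymes of serine and one-carbon synthesis are known to be highly expressed.

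The members were expressed in these cells with 1 exception. *Slc7a11*, the cystine transporter, had 0.03 to 0.09 FPKM and 4 to 14 reads per library, and it did not pass the filter of a mean of 0.5 FPKM. The remaining 38 members were tested. *Dppa3* itself had 3.89 to 26.2 FPKM in the Con libraries and 131 to 279 FPKM in the OE libraries, and the lowest OE value and the highest Con value were both in the D7 pair. Depth was even, from 17408954 to 18176939 estimated reads per library. The libraries of a pair deviated together in all 3 pairs, so differences between the pairs run through every comparison. In bulk RNA, fewer cells of a type and less RNA per cell cannot be told apart.

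Stretches of the promoters are shown first because the elements searched for fell mostly in 1 arm each. The window for each gene ran from 250 bases before to 50 bases after the transcription start (RefSeq, GRCm38.p6), and 32 of the 39 members had one. The core of the C/EBP-ATF response element, to which Atf4 binds with a C/EBP partner, was searched on both strands as TGATGNAA. It occurred in 9 of 22 amino acid arm genes with a window, which is 40.9%, against 3.97% of all 32851 windows and 2.81% of the 10978 tested genes with a window. In the following 4 promoters of amino acid arm genes the capitals mark that match on either strand. *Asns* lies at chr6:7693210-7693252 on the minus strand, *Chac1* at chr2:119351029-119351076 on the plus strand, *Nupr1* at chr7:126625553-126625600 on the minus strand and *Pycr1* at chr11:120643824-120643871 on the minus strand.
Asns: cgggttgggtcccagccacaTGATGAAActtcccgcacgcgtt
Chac1: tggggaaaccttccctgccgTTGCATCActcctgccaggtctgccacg
Nupr1: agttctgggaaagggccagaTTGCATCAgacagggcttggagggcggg
Pycr1: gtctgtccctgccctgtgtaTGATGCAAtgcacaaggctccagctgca

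The ER stress response element (ERSE), the site of Atf6 and its partner NF-Y, was searched as CCAAT, any 9 bases and CCACG. It occurred in 5 of 10 ER chaperone arm genes with a window (*Calr*, *Creld2*, *Hsp90b1*, *Hspa5* and *Pdia6*), in 0 of 22 amino acid arm genes and in 0.119% of all windows. A second form, ERSE-II, was searched as ATTGG, any base and CCACG. It occurred in 0.0365% of all windows and, among the members, in *Herpud1*, the ER arm gene that also held the C/EBP-ATF core. The capitals in the next 4 stretches mark these matches on either strand. *Hspa5* lies at chr2:34772005-34772063 on the plus strand, *Calr* at chr8:84847055-84847113 on the minus strand, *Pdia6* at chr12:17266471-17266529 on the plus strand and *Herpud1* at chr8:94386297-94386407 on the plus strand.
Hspa5: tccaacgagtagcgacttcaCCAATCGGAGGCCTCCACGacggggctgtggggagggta
Calr: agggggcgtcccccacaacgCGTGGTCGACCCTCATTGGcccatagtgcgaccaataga
Pdia6: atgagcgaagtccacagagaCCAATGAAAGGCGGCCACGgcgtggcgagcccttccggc
Herpud1: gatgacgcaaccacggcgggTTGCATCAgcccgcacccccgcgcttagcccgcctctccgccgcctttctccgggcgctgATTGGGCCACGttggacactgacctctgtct

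In *Herpud1* the first capitals are the C/EBP-ATF core and the second are ERSE-II. *Ddit3*, *Psat1*, *Atf4* and *Sdf2l1* had no match within their windows, and the motif matches describe the letters of these windows only.

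The first comparison was pair 2 against pair 1, with the genotype as a covariate. The arms parted. In the amino acid arm, 19 of 26 tested genes were higher in pair 2 and 1 was lower, and the median difference was 0.571, against a median of 0.024 over all genes tested. In the ER chaperone arm, 2 of 12 genes were higher and 2 were lower, with a median of -0.209. Pairs 1 and 2 differed broadly, since 21.1% of 13809 tested genes were higher in pair 2 and 19.7% were lower (edgeR quasi-likelihood F test, adjusted p under 0.05). The share of higher genes in the amino acid arm is to be read against that background. The error of this fit comes from how the OE to Con difference varies over the pairs, with 2 residual degrees of freedom. It holds no spread between pairs, so a call describes these libraries and does not speak for other cultures. In normalized counts scaled to library size (CPM), both libraries of pair 2 were above both of pair 1 for 20 of 26 amino acid arm genes and 2 of 12 ER arm genes, against 36.7% of all genes. Both were below for 2 of 26 and 6 of 12, against 39.3% of all genes.

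**Figure D1:**
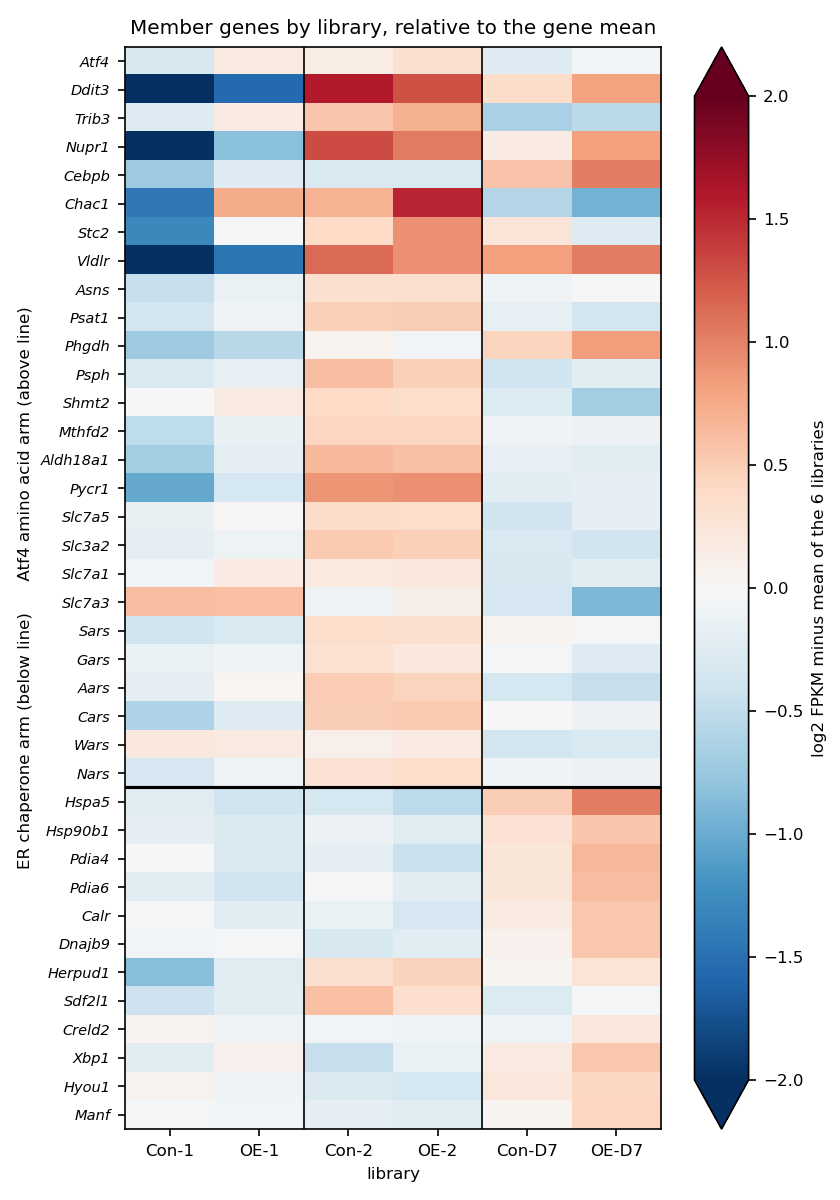
Heat map of the 38 tested members (rows) in the 6 libraries (columns, by pair), as log2 FPKM minus the gene's mean over the 6 libraries. The colour scale ends at 2 in both directions. The amino acid arm is mostly red in pair 2 and blue in Con-1, and the ER chaperone arm is mostly red in the D7 pair.

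The largest differences were in stress regulators. *Ddit3* (CHOP, a stress-induced C/EBP family factor; gene number 13198) had 4.29 FPKM in Con-1 and 8.11 in OE-1, 71.9 in Con-2 and 58.0 in OE-2. The pairs did not overlap, and the D7 pair lay between them with 30.9 in Con-D7 and 41.7 in OE-D7. The difference of pair 2 from pair 1 was 3.20 ± 0.244 (SE), a 9.16-fold difference (edgeR, adjusted p = 0.00213). *Nupr1*, a small stress-induced nuclear protein, had 3.03 FPKM in Con-1, 9.45 in OE-1, 41.4 in Con-2, 34.5 in OE-2, 18.8 in Con-D7 and 29.7 in OE-D7. Its order of the pairs was that of *Ddit3*, with a difference of 2.61 ± 0.372 (edgeR, adjusted p = 0.00279).

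The level of *Atf4* mRNA moved little by comparison. *Atf4* had 79.4 FPKM in Con-1, 112 in OE-1, 109 in Con-2, 123 in OE-2, 82.4 in Con-D7 and 95.5 in OE-D7. Pair 2 differed from pair 1 by 0.19 ± 0.097, which did not pass the test (edgeR, adjusted p = 0.148), and the pairs overlapped. *Trib3*, a pseudokinase target of *Atf4* and *Ddit3*, had 6.90 and 9.22 FPKM in Con-1 and OE-1, 12.2 and 13.5 in Con-2 and OE-2, and 5.29 and 5.69 in Con-D7 and OE-D7. It was higher in pair 2 by 0.58 ± 0.134 (edgeR, adjusted p = 0.0126). The fifth regulator, *Cebpb*, had 2.41 to 3.32 FPKM in the 4 libraries of D0 and differed by 0.09 ± 0.215 between the pairs (edgeR, adjusted p = 0.777).

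**Figure D2:**
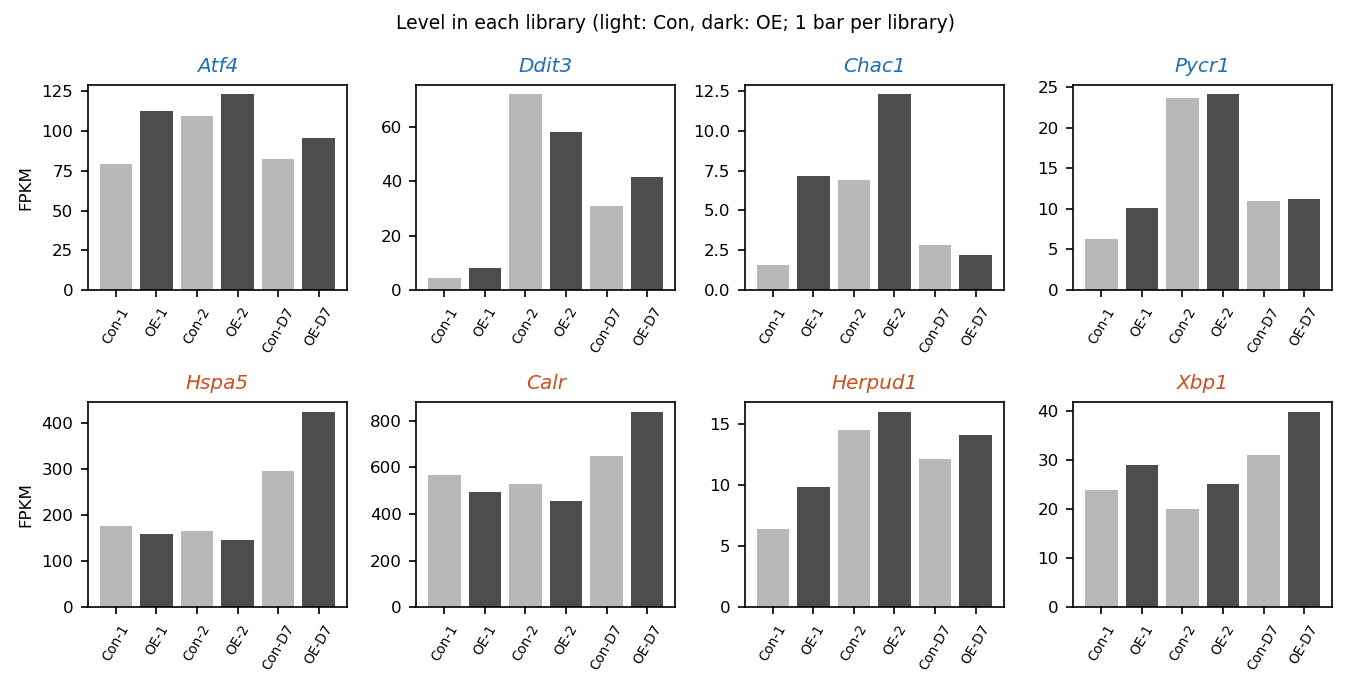
Level in FPKM of 4 amino acid arm genes (top row) and 4 ER chaperone arm genes (bottom row) in each of the 6 libraries, 1 bar per library, light for Con and dark for OE; each panel starts at 0 and has its own scale. Ddit3 and Pycr1 are highest in both libraries of pair 2, and Hspa5 and Calr are highest in OE-D7.

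The 3 other *Atf4* targets were low in Con-1. *Vldlr*, a lipoprotein receptor, had 0.16 FPKM in Con-1, 0.31 in OE-1, 1.89 in Con-2, 1.61 in OE-2, 1.51 in Con-D7 and 1.75 in OE-D7. It was higher in pair 2 by 2.46 ± 0.340 (edgeR, adjusted p = 0.00266), from only 17 reads in Con-1. *Stc2*, a secreted glycoprotein, had 2.06 FPKM in Con-1, 4.98 in OE-1, 6.70 in Con-2, 9.55 in OE-2, 6.04 in Con-D7 and 4.24 in OE-D7, and was higher in pair 2 by 1.14 ± 0.348 (edgeR, adjusted p = 0.0342). *Chac1*, which degrades glutathione, overlapped between the pairs and is taken up with the OE comparison.

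Among the 8 synthesis enzymes, 7 were higher in pair 2. *Pycr1* and *Aldh18a1*, which make proline, led. *Pycr1* had 6.30 FPKM in Con-1, 10.1 in OE-1, 23.7 in Con-2, 24.1 in OE-2, 10.99 in Con-D7 and 11.2 in OE-D7, a difference of 1.47 ± 0.179 between the pairs (edgeR, adjusted p = 0.00227). *Aldh18a1* had 13.0 and 18.4 FPKM in pair 1, 32.6 and 31.5 in pair 2, and 18.8 and 18.2 in the D7 pair, each time with Con first, a difference of 0.95 ± 0.138. *Asns*, asparagine synthetase, was the most abundant enzyme of the arm. It had 218 FPKM in Con-1, 273 in OE-1, 375 in Con-2, 373 in OE-2, 285 in Con-D7 and 299 in OE-D7. Its difference was smaller, 0.52 ± 0.090, and passed (edgeR, adjusted p = 0.0049). The serine enzymes *Psat1*, *Phgdh* and *Psph* differed by 0.60, 0.56 and 0.66, and *Mthfd2*, a mitochondrial folate enzyme, by 0.66, all past the test. *Shmt2*, the mitochondrial enzyme that turns serine into glycine, differed by 0.18 ± 0.126 (edgeR, adjusted p = 0.283).

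The transporters moved apart from each other. *Slc3a2* and *Slc7a5*, the heavy and light chains of the large neutral amino acid exchanger, were higher in pair 2 by 0.43 ± 0.079 and 0.32 ± 0.086. *Slc3a2* had 95.3 and 101 FPKM in Con-1 and OE-1, and 155 and 150 in Con-2 and OE-2. *Slc7a3*, a cationic amino acid transporter, was the single arm member that was lower in pair 2. It had 64.4 FPKM in Con-1, 63.1 in OE-1, 39.0 in Con-2 and 45.1 in OE-2, a difference of -0.67 ± 0.171 (edgeR, adjusted p = 0.0179). *Slc7a1*, the other cationic transporter, had 20.7 to 25.2 FPKM in these 4 libraries and differed by 0.05 ± 0.079 (edgeR, adjusted p = 0.615).

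Of the 6 tRNA synthetases, which charge tRNAs with their amino acids, 5 were higher in pair 2. *Cars*, for cysteine, had 33.2 FPKM in Con-1, 42.9 in OE-1, 71.6 in Con-2 and 73.5 in OE-2 and showed the largest difference of them, 0.85 ± 0.111 (edgeR, adjusted p = 0.00242). *Sars*, *Nars*, *Aars* and *Gars*, for serine, asparagine, alanine and glycine, differed by 0.59, 0.44, 0.44 and 0.26. *Wars*, for tryptophan, had 45.5 to 48.9 FPKM in the 4 libraries and differed by -0.17 ± 0.084 (edgeR, adjusted p = 0.148). Of 8 tRNA synthetases outside both pathway lists, 0 were higher in pair 2, against 21.1% of all genes. Lower were 2, *Farsa* by -0.56 and *Hars* by -0.24, against 19.7% of all genes.

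In the ER chaperone arm the pair difference was small or of the other sign. *Hspa5* (BiP, the main ER chaperone of the Hsp70 family; gene number 14828) had 177 FPKM in Con-1, 159 in OE-1, 165 in Con-2 and 146 in OE-2, a difference of -0.21 ± 0.165 (edgeR, adjusted p = 0.337). *Hyou1*, another large ER chaperone, had 43.9 and 39.6 FPKM in pair 1 and 34.4 and 32.9 in pair 2 and was lower by -0.41 ± 0.103 (edgeR, adjusted p = 0.0171). *Xbp1* had 23.9 FPKM in Con-1, 29.1 in OE-1, 19.98 in Con-2, 25.2 in OE-2, 31.1 in Con-D7 and 39.9 in OE-D7, and was lower in pair 2 by -0.33 ± 0.092 (edgeR, adjusted p = 0.0238). Its pairs overlapped in FPKM but not in normalized CPM.

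The exceptions in this arm were *Herpud1* and *Sdf2l1*. *Herpud1*, a membrane component of ER-associated degradation, had 6.43 FPKM in Con-1, 9.80 in OE-1, 14.5 in Con-2, 16.0 in OE-2, 12.1 in Con-D7 and 14.1 in OE-D7. It was higher in pair 2 by 0.83 ± 0.144 (edgeR, adjusted p = 0.00495). *Sdf2l1*, an ER-resident cochaperone, had 15.5, 17.8, 31.6 and 26.2 FPKM in Con-1, OE-1, Con-2 and OE-2 and was higher by 0.70 ± 0.156 (edgeR, adjusted p = 0.0113). The remaining 8 genes of the arm (*Hspa5*, *Hsp90b1*, *Pdia4*, *Pdia6*, *Calr*, *Dnajb9*, *Creld2* and *Manf*) differed by between -0.33 and 0.09 and did not pass. Within pairs 1 and 2 alone, a fit in which the D7 libraries took no part, 7 of the 12 ER arm genes were lower in pair 2 and 2 were higher, against 25.4% and 26% of all genes.

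Single libraries weighed on this comparison. Without Con-1, 7 amino acid arm genes were called higher in place of 19, and without Con-2 also 7. Calls fell over the whole table too, to 4.61% of genes higher without Con-1 and 4.75% without Con-2, and to 1274 and 1307 genes in both directions. The same 7 genes were called in both cases, namely *Ddit3*, *Nupr1*, *Vldlr*, *Pycr1*, *Aldh18a1*, *Cars* and *Sars*. The direction held within each genotype, with a median ratio of pair 2 to pair 1 of 0.646 in Con (24 of 26 genes above 0) and 0.402 in OE (21 of 26). The ER arm medians were -0.262 in Con and -0.241 in OE.

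Genes of the same pathways outside the members, also listed with earlier results of these data known, were counted in the same fit. Of 37 other tested *Atf4* pathway genes, 17 were higher in pair 2 and 5 were lower, against 21.1% and 19.7% of all genes. The 4 largest were *Atf3*, a stress-induced transcription factor, at 2.45, *Aldh1l2*, a mitochondrial folate enzyme, at 2.21, *Ddit4*, an inhibitor of mTORC1, at 2.16 and *Slc1a4*, a neutral amino acid transporter, at 1.62. The lower genes included *Slc38a2*, another neutral amino acid transporter, at -1.01, and *Eif2ak1*, an eIF2 kinase, at -0.73. Of 28 other ER stress genes, 4 were higher, led by *Crebrf* at 1.19, and 3 were lower, led by *Atf6b* at -0.55. The shares over all genes were again 21.1% and 19.7%.

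Other cell states differed between the same pairs. *Nanog* was lower in pair 2 by -0.69 and *Tdgf1* was higher by 0.85. Of the 8 pluripotency markers, 2 were higher and 3 lower, against 21.1% and 19.7% of all genes. Their summed level was 3768 and 3927 FPKM in pair 1 against 4536 and 4354 in pair 2. *Tdgf1* and *Dppa5a* were the 2 higher genes behind that sum, while 6 of the 8 markers were below 0, with a median of -0.126. The summed fibroblast markers were 33 and 39.4 FPKM in pair 1 and 60.9 and 54.8 in pair 2, of which *Thy1* gave most, and *Pdgfrb* was higher by 1.91. The summed trophectoderm markers were 24.0 and 27.0 FPKM in pair 1 and 42.6 and 37.8 in pair 2. *Krt18* was higher by 0.91 and *Eomes* by 0.81. *Cdx2* went the other way, with 0.15 and 0.10 FPKM in pair 1 and 0.05 in both libraries of pair 2. The primitive endoderm markers summed to at most 2.87 FPKM in these libraries, and *Pdgfra* was higher by 1.28. *Sox7*, of the same list, had 0.65 and 0.86 FPKM in pair 1 and less in pair 2, 0.36 and 0.59. *Lum* and *Dcn*, also in the fibroblast list, had 0 to 0.09 FPKM in the D0 libraries. The part of these in the result was not tested.

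The second comparison was D7 against D0, with the genotype as a covariate. Here the medians of the arms had opposite signs. The median of the amino acid arm was -0.311 and that of the ER chaperone arm 0.494, against -0.031 over all genes tested. D0 holds pair 2, in which the amino acid arm was higher than in pair 1. Without Con-2 the median of that arm was -0.111, and D7 against pair 1 alone was not tested. In the ER arm 2 of 12 genes were higher in D7 and 0 lower, while in the amino acid arm 1 of 26 was higher and 2 were lower. The background was 6.77% of genes higher and 3.06% lower (edgeR, adjusted p under 0.05). On the same scale, both D7 libraries lay above all 4 D0 libraries for 8 of 12 ER arm genes and 3 of 26 amino acid arm genes, against 22.5% of all genes. Both lay below for 0 of 12 and 10 of 26, against 25.6%.

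*Hspa5* had 295 FPKM in Con-D7 and 424 in OE-D7, above the 146 to 177 FPKM of the D0 libraries. It was higher in D7 by 1.14 ± 0.183, in both genotypes together (edgeR, adjusted p = 0.0226). *Hsp90b1* (GRP94, the ER member of the Hsp90 family) had 445 FPKM in Con-D7 and 535 in OE-D7 against 319 in Con-1, 299 in OE-1, 336 in Con-2 and 308 in OE-2. The D7 libraries stood above the rest, with a difference of 0.63 ± 0.115 (edgeR, adjusted p = 0.0311). *Pdia4*, a disulphide isomerase, had 85.2 FPKM in Con-D7 and 114 in OE-D7 against 52.9 to 72.6 in D0, and its difference of 0.69 ± 0.201 did not pass (edgeR, adjusted p = 0.0882). *Pdia6*, another disulphide isomerase, differed by 0.64, *Calr*, a lectin chaperone that binds calcium, by 0.53, *Xbp1* by 0.52, *Hyou1* by 0.47 and *Dnajb9*, an *Hspa5* cochaperone, by 0.45, none past the test. *Manf*, a secreted ER protein, differed by 0.36, *Herpud1* by 0.18, *Creld2* by 0.10 and *Sdf2l1* by -0.27, also without passing.

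In the amino acid arm, *Cebpb* was higher in D7. It had 5.93 FPKM in Con-D7 and 8.04 in OE-D7 against 2.41 to 3.32 in D0, a difference of 1.18 ± 0.214 (edgeR, adjusted p = 0.0299). *Phgdh*, which starts serine synthesis, had 100 FPKM in Con-D7 and 131 in OE-D7 against 44.7, 50.2, 77.7 and 71.0 in Con-1, OE-1, Con-2 and OE-2. These 2 libraries were the highest of the 6, but its difference of 0.92 ± 0.235 did not pass (edgeR, adjusted p = 0.067). *Shmt2* was lower, with 88.5 FPKM in Con-D7 and 66.0 in OE-D7 against 107 to 141 in D0, a difference of -0.72 ± 0.156 (edgeR, adjusted p = 0.0461). *Wars* was lower by -0.53 ± 0.119, with 32.8 and 34.2 FPKM in the D7 pair (edgeR, adjusted p = 0.0489). *Slc7a3* had 33.1 FPKM in Con-D7 and 22.4 in OE-D7, below every D0 library, and differed by -0.96 ± 0.318 (edgeR, adjusted p = 0.115). *Trib3* differed by -0.92 ± 0.272 (edgeR, adjusted p = 0.0904).

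Genes with a wide gap between pairs 1 and 2 had wide errors against D7. *Ddit3*, *Nupr1* and *Pycr1* lay between the pairs in both D7 libraries, with differences of 0.09 ± 1.08, 0.14 ± 0.957 and -0.49 ± 0.567. *Vldlr* was above all D0 libraries in both D7 libraries in normalized CPM, though not in FPKM, and differed by 1.02 ± 0.864 (edgeR, adjusted p = 0.47). *Asns* differed by -0.08 ± 0.215. With a replicate block, in which the gap between pairs 1 and 2 is removed from the error, 25.6% of all genes were higher in D7 and 23.6% lower. In that fit 9 of 12 ER arm genes were higher and 0 lower, and 4 of 26 amino acid arm genes were higher (*Phgdh*, *Cebpb*, *Vldlr* and *Ddit3*) and 13 lower, *Atf4* among them at -0.26 (edgeR, adjusted p = 0.0378). That error holds no gap between pairs, although D7 is itself a difference between pairs.

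**Figure D3:**
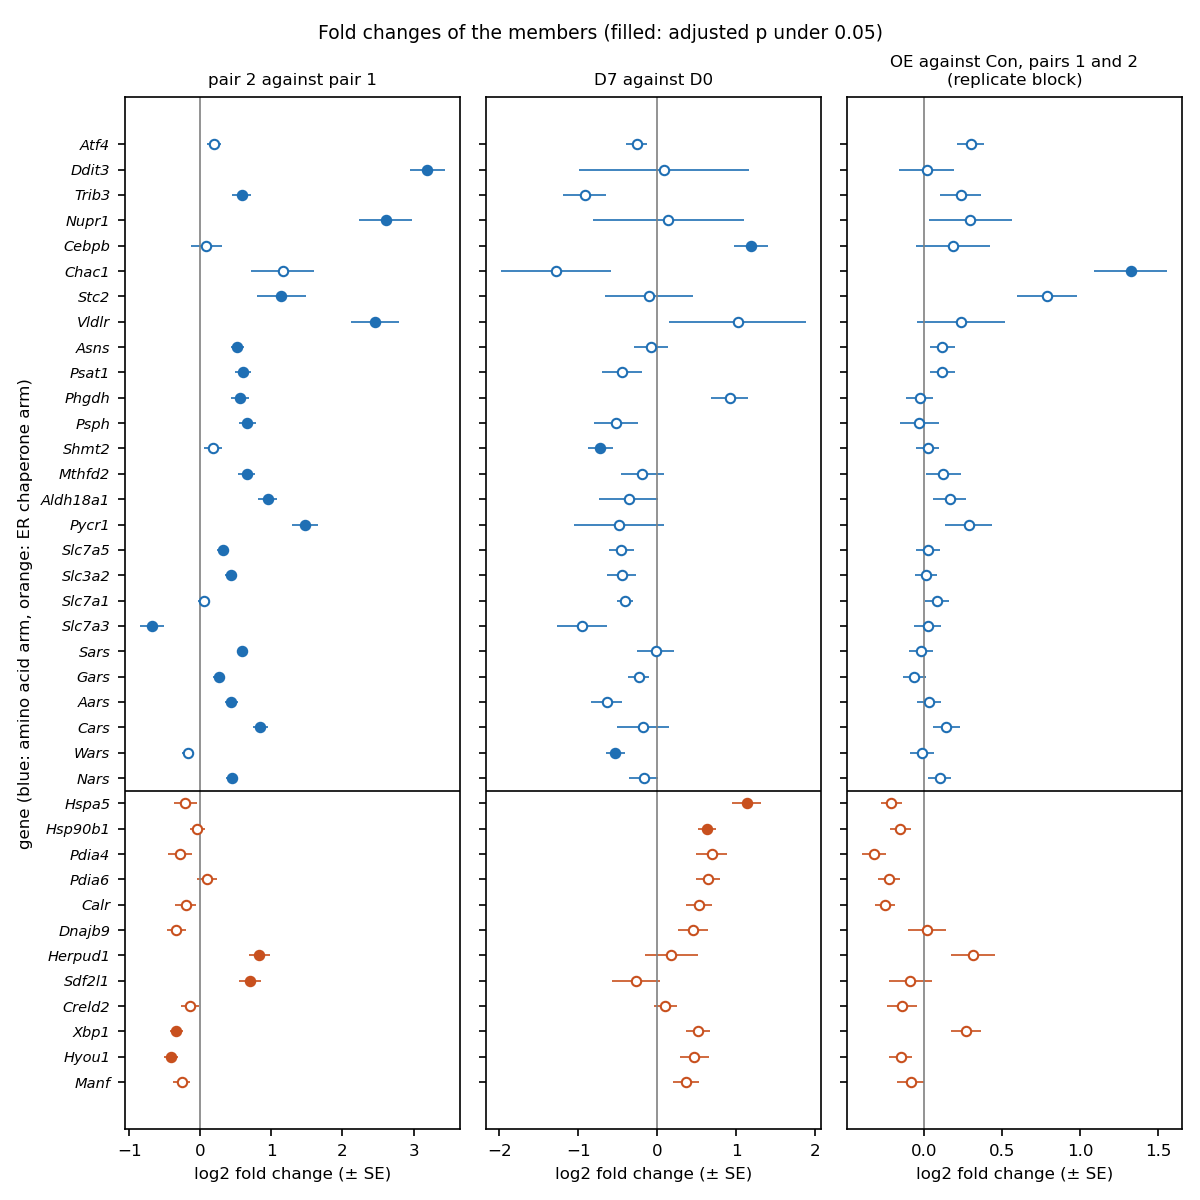
Log2 fold change with its SE (edgeR) of the 38 tested members in pair 2 against pair 1, in D7 against D0, and in OE against Con with the replicate block, blue for the amino acid arm and orange for the ER chaperone arm; filled points had an adjusted p under 0.05, and the horizontal scales differ. In the left panel 20 amino acid arm genes and 4 ER arm genes are filled, and in the right panel only Chac1 is.

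These calls rest on single D7 libraries. Without OE-D7, 0 genes of the whole table were called, and without Con-D7, 28 were; without OE-1, OE-2, Con-D7 or OE-D7, 0 members of the ER arm were called, and without OE-1 or OE-2 the whole table had 429 or 365 calls. Within OE alone, 5 ER arm genes were higher in OE-D7, namely *Hspa5*, *Hsp90b1*, *Pdia4*, *Pdia6* and *Calr*, against 7.77% of all genes. Within Con alone 0 were, against 0.571% of all genes. Each of these fits sets 1 D7 library, with no spread of its own, against 2, so the 2 counts are no test of a difference between the genotypes. The median ratio of D7 to D0 in the ER arm was 0.278 in Con and 0.611 in OE, and 10 and 11 of 12 genes were above 0. In the amino acid arm it was -0.192 in Con and -0.424 in OE. Of the 28 other ER stress genes, 3 were higher in D7, namely *P4hb* at 0.67, *Edem1* at 0.64 and *Txndc5* at 0.62, and 0 were lower. Over all genes 6.77% were higher in D7 and 3.06% lower. Of the 37 other *Atf4* genes, 0 were higher and *Got1* at -0.44 and *Eif4ebp1* at -0.44 were lower. The 8 tRNA synthetases outside both lists had a median of -0.418 in D7, with 7 of 8 below 0, and *Hars* at -0.61 and *Vars* at -0.59 were lower, so lower values in D7 were not particular to the amino acid arm.

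Markers of other cell types moved with the D7 label. The 5 trophectoderm markers summed to 24.0 to 42.6 FPKM in D0, 577.9 in Con-D7 and 1007 in OE-D7, nearly all of it from *Krt8* and *Krt18*, while *Cdx2* had at most 1.49 FPKM. Of these markers, 3 of 5 were called higher, against 6.77% of all genes. The 8 fibroblast markers summed to 33 to 60.9 FPKM in D0, 74.7 in Con-D7 and 183.8 in OE-D7, with 4 of 8 called higher. Of these, *Col1a1*, a secreted collagen chain, had 0.80 to 1.81 FPKM in D0, 38.0 in Con-D7 and 129 in OE-D7, while *Lum* and *Dcn* had at most 0.21 FPKM in every library. The 5 primitive endoderm markers summed to 1.80 to 2.87 FPKM in D0, 4.23 in Con-D7 and 6.85 in OE-D7. These sums were higher in OE-D7 than in Con-D7, as all 12 ER arm genes were. Single markers in these lists went the other way. *Cdx2* had 1.49 FPKM in Con-D7 and 1.20 in OE-D7, *Eomes* 7.50 and 4.49, and *Thy1* 22.95 and 20.97. In D0 *Thy1* was higher, at 30.8 to 53.0 FPKM. *Sox7* had 0.36 to 0.86 FPKM in D0, 0.32 in Con-D7 and 0.43 in OE-D7. Of the 8 pluripotency markers, 3 were lower in D7, *Pou5f1* among them at -0.88, and 0 higher, against 3.06% and 6.77% of all genes. *Dppa5a* went up, from 1238 to 1701 FPKM in D0 to 2083 in Con-D7 and 2268 in OE-D7. This list summed to 3768 to 4536 FPKM in D0, 3768 in Con-D7 and 3667 in OE-D7. The part of these markers in the result was not tested.

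The third comparison was OE against Con. Over pairs 1 and 2 without a block, 0% of the 13494 genes tested were called in either direction, so 0 members were (edgeR, adjusted p under 0.05; 58 genes were higher and 4 lower before adjustment at p under 0.05, with 0 members among them; DESeq2 called 2 genes). The spread in that fit holds the gap between the pairs. With the replicate block, 0.763% of genes were higher in OE and 0.126% lower, and 1 member was called, *Chac1*. The median in the blocked fit was 0.107 over the amino acid arm and -0.147 over the ER chaperone arm, against 0.001 over all genes.

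*Chac1* (gene number 69065) had 1.59 FPKM in Con-1 and 7.16 in OE-1, 6.89 in Con-2 and 12.3 in OE-2, and 2.85 in Con-D7 and 2.21 in OE-D7. It was above Con in pairs 1 and 2 and below Con in the D7 pair, and Con-2 lay close to OE-1. In pairs 1 and 2 the difference was 1.32 ± 0.232 with the block, a 2.50-fold difference (edgeR, adjusted p = 0.00668), and 1.17 ± 0.732 without it (edgeR, adjusted p = 1). DESeq2 with the block gave 1.41 (adjusted p = 0.0725), and all 6 libraries with the block gave 0.86 (edgeR, adjusted p = 0.591). *Stc2* took the same course, with ratios of OE to Con of 1.20 in pair 1, 0.46 in pair 2 and -0.55 in the D7 pair, and 0.79 ± 0.194 in the blocked fit (edgeR, adjusted p = 0.0757). *Atf4* was above Con in all 3 pairs, by 0.44, 0.12 and 0.18, and its blocked difference was 0.30 ± 0.086 (edgeR, adjusted p = 0.18).

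Taken pair by pair, with 1 library a side and no test, the amino acid arm as a whole leaned to OE in pair 1, while its roles differed in the other pairs. In pair 1, 23 of 26 genes were above Con, with a median ratio of 0.242, and all 8 synthesis enzymes were among them. In pair 2, 7 of 26 were above Con with a median of -0.054, and all 8 synthesis enzymes were below. In the D7 pair, 11 of 26 were above with a median of -0.068. All 5 regulators were above Con in the D7 pair, with a median of 0.369, as they were in pair 1, and all 3 of the other targets were below it. Over all genes 45.8%, 45.7% and 48.3% were above Con in the 3 pairs. The unblocked difference of some members followed the Con library that was kept: without Con-2, *Ddit3* was 2.61, *Nupr1* 2.74, *Chac1* 2.51 and *Pycr1* also called higher in OE, against 0.642% of all genes higher, while with all 4 libraries *Ddit3* was -0.25 ± 1.42.

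**Figure D4:**
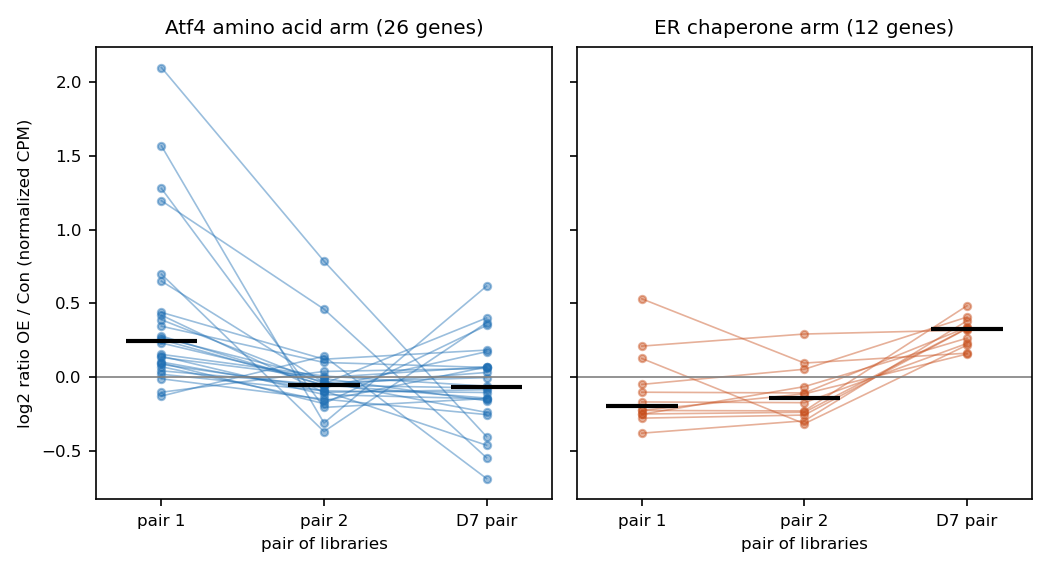
Log2 ratio of OE to Con in normalized CPM for each tested member in pair 1, pair 2 and the D7 pair, with a line per gene and a black bar at the median; left the amino acid arm (26 genes), right the ER chaperone arm (12 genes). The medians of the ER arm are -0.197, -0.144 and 0.324, and all 12 of its genes are above 0 in the D7 pair.

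Most genes of the ER chaperone arm were below Con in pairs 1 and 2 and above it in the D7 pair. In pair 1, 9 of 12 genes were below Con with a median of -0.197, in pair 2 also 9 of 12 with a median of -0.144, and in the D7 pair 12 of 12 were above Con with a median of 0.324. Of the 12, 8 were below Con in both D0 pairs and above it in the D7 pair, against 12.9% of all genes, and the amino acid arm had 0 of 26 of these. *Xbp1* (0.210, 0.292 and 0.319) and *Herpud1* (0.531, 0.095 and 0.162) were above Con in every pair, and *Dnajb9* and *Sdf2l1* changed sign between pairs 1 and 2. The opposite order, above Con in both D0 pairs and below in D7, was found for *Chac1*, *Stc2* and *Nars*, 3 of 26, against 9.63% of all genes. *Calr* had 569 FPKM in Con-1 and 494 in OE-1, 528 in Con-2 and 457 in OE-2, and 651 in Con-D7 and 840 in OE-D7. *Pdia6* had 140 and 124, 160 and 141, and 193 and 250 FPKM in the same order.

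Whether the OE effect differed between D7 and D0 was tested as an interaction. Without a block 0% of the 13809 genes were called (edgeR, adjusted p under 0.05; before adjustment at p under 0.05, 47 had a higher and 22 a lower effect, *Hspa5* the only member among them). With the replicate block 0.934% of genes had a higher OE effect in D7 and 0.507% a lower one. In that fit 4 of 12 ER arm genes had a higher effect in D7. The differences were 0.72 ± 0.134 for *Pdia4*, 0.71 ± 0.118 for *Hspa5*, 0.60 ± 0.113 for *Calr* and 0.58 ± 0.124 for *Pdia6* (edgeR, adjusted p = 0.00424, 0.00144, 0.00487 and 0.0147). In the amino acid arm 2 of 26 had a lower effect, *Stc2* by -1.32 ± 0.337 and *Slc7a3* by -0.69 ± 0.160 (edgeR, adjusted p = 0.0497 and 0.0249), and *Chac1* at -1.72 ± 0.446 did not pass (edgeR, adjusted p = 0.0523). The D7 side is 1 library of each genotype, and the error of this fit comes from 1 residual degree of freedom, pairs 1 and 2. Of the 28 other ER stress genes, 2 had a higher effect in D7 and 0 a lower one, and of the 37 other *Atf4* genes 0 were called.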

How the data were processed

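Messenger RNA was sequenced on BGISEQ-500 for 6 libraries. The authors deposited estimated counts per gene, not normalized, and FPKM values scaled to transcript length and depth, with 2 decimals. The methods name Bowtie2, mm10 and RSEM, the submitters' processing notes HISAT and GRCm38.p6, and versions are not given in the sources used here. Counts of the D7 libraries are headed as averages, and of what is not stated in the sources used here. They were taken as 1 library each, with totals of 17790699 in Con-D7 and 17408954 in OE-D7. Of 19489 genes, 19340 matched RefSeq by gene number, and 26 symbols turned into dates were restored. Estimated counts were rounded and fitted in edgeR 4.0.16 (R 4.3.3; TMM, quasi-likelihood F test, Benjamini-Hochberg over all genes with a mean of 0.5 FPKM, threshold 0.05). An SE is the fold change over the root of F. DESeq2 1.42.0, other size factors, no filter, left-out libraries and blocks were alternatives, and scripts were tested on simulated data. Same-numbered libraries deviated together (correlations 0.9, 0.78 and 0.9 over 12565 genes, other pairings at most -0.053), so blocked fits are given. Members and lists were chosen with earlier results of these data known. Library values were named for *Atf4*, *Ddit3*, *Trib3*, *Chac1*, *Asns*, *Xbp1*, *Hspa5* and the 2 members of each role that differed most in a comparison. Of the other lists, called genes with the largest change were named, at most 4 a direction.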

Additional observations from a re-analysis of the deposited data

Results flagged for a closer look

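In 11 members the OE to Con ratio of the D7 pair had the opposite sign to both D0 pairs, a comparison of single libraries. Such a change of sign was also common over all genes. There 12.9% were below Con in both D0 pairs and above it in the D7 pair, and 9.63% had the reverse order. In the amino acid arm these ratios (log2) in the D7 pair were -0.404 for *Chac1*, -0.548 for *Stc2* and -0.062 for *Nars*. In the ER chaperone arm they were 0.484 for *Hspa5*, 0.228 for *Hsp90b1*, 0.382 for *Pdia4*, 0.331 for *Pdia6*, 0.329 for *Calr*, 0.264 for *Creld2*, 0.156 for *Hyou1* and 0.337 for *Manf*. The difference passed the test with the replicate block (edgeR, adjusted p under 0.05) in 6 members, with values of -1.316 for *Stc2*, -0.691 for *Slc7a3*, 0.713 for *Hspa5*, 0.723 for *Pdia4*, 0.577 for *Pdia6* and 0.598 for *Calr*. In that fit 0.934% of all genes had a higher OE effect in D7 and 0.507% a lower one. For the others the difference missed the threshold there, and without the block it did for every member (adjusted p = 1).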

How the results depend on the processing

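Median differences of both arms kept their direction in pair 2 against pair 1 and in D7 against D0 under every alternative run, but some shrank. In pair 2 against pair 1 the ER arm median was -0.043 without Con-1, against -0.209. In D7 against D0 the amino acid arm median was -0.111 without Con-2, against -0.311. OE against Con called 0 genes without a block, 2 in DESeq2, 34 in DESeq2 with the replicate block, 120 with the replicate block (1 member, in the amino acid arm) and 1 with all 6 libraries and the block. Leaving out 1 library there gave 1 to 90 genes and 0 to 4 amino acid arm genes higher, the upper values without Con-2. Single genes changed sign with the library dropped. Values without Con-1 and, after the word to, without Con-2 were *Psat1* (-0.234 to 0.512), *Mthfd2* (-0.265 to 0.570), *Aars* (-0.249 to 0.329), *Asns* (-0.211 to 0.473), *Sdf2l1* (-0.517 to 0.404), *Psph* (-0.391 to 0.391), *Phgdh* (-0.357 to 0.340) and *Slc7a3* (0.460 to -0.354), and values without OE-2 and without Con-2 were *Nupr1* (-1.193 to 2.742), *Ddit3* (-2.135 to 2.606) and *Sars* (-0.327 to 0.335). With all 6 libraries *Shmt2* was -0.146 and *Hspa5* 0.018, or 0.019 with the block. Pair 2 against pair 1 called 5633 genes, and 1274 (without Con-1) to 7046 with 1 library left out. The amino acid arm then had 7 to 21 genes higher and 0 to 1 lower, and the ER arm 0 to 2 higher and 0 to 7 lower (7 also in pairs 1 and 2 only); *Shmt2* was -0.013 (without Con-1) to 0.376 (without OE-1). D7 against D0 called 1357 genes, and 0 (without OE-D7) to 2533 (without Con-2) with 1 library left out, with 0 to 2 amino acid arm genes higher, 0 to 4 lower and 0 to 3 ER arm genes higher; *Creld2* was -0.109 (without OE-D7) to 0.333 (without Con-D7). DESeq2 called 2494 genes (amino acid arm 2 higher and 6 lower, ER arm 4 higher), the replicate block 6787 (4, 13 and 9), Con only 81 (0, 0 and 0), and OE only gave 5 ER arm genes higher. RLE size factors and no filter each left 1 amino acid arm gene lower in D7. The interaction called 199 genes with the replicate block. Where a cause is not plain from fewer libraries, it was not tested. With 1 or 2 libraries a group, small differences could not be called at this depth of replication. A left-out library can leave a group with 1 sample, which is then assumed to vary like the others.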

Other observations

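Stress pathways outside both arms were mostly lower in pair 2 than in pair 1, with medians of -0.331 over the heat shock genes and -0.386 over the Nrf2 targets, beside -0.209 in the ER chaperone arm. Of 13 cytosolic heat shock genes, 2 were higher (*Hspa1a* by 1.29 and *Hspa4l* by 1.03) and 8 were lower, led by *Hsph1*, a chaperone of the Hsp110 group, by -1.57 and *Dnaja1*, an Hsp70 cochaperone, by -0.97 (edgeR, adjusted p under 0.05). Of 9 tested Nrf2 targets, genes of the oxidative stress response, 1 was higher (*Hmox1* by 0.47) and 5 were lower, led by *Nqo1* by -0.76. Over all genes 21.1% were higher in pair 2 and 19.7% lower. In D7 against D0, *Hspa1b* was the 1 heat shock gene called, higher by 1.83, and 0 Nrf2 targets were called. The shares over all genes were 6.77% higher and 3.06% lower. With the replicate block 5 heat shock genes were higher and 2 lower, and 1 Nrf2 target was higher and 3 lower. In that fit 25.6% of all genes were higher and 23.6% lower. Of the 4 neural markers, *Tubb3* and *Nes* were lower in pair 2, by -1.18 and -0.39, and their list summed to 105 and 104 FPKM in pair 1 and 46.9 and 55.3 in pair 2.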
